A study of Mus musculus with 6 samples.

Results

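The aminoacyl-tRNA synthetase genes were followed across a mouse endothelial cell experiment. They were taken by symbol, as the genes for the enzymes that load amino acids onto tRNAs in the cytosol and in mitochondria. The set held 38 of the 29955 gene names in the expression table, of which 21 encode cytosolic forms and 17 mitochondrial forms. All 38 had a mean of at least 1 FPKM (sequenced fragments scaled to transcript length and library size) and were among the 11816 gene names tested.

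The cells were MS-1, a line made by immortalising endothelial cells of mouse pancreatic islets. Total RNA was depleted of ribosomal RNA and sequenced after a strand-preserving library preparation. The 6 libraries crossed 3 transfected miRNA inhibitors, labelled LNA-miR31, LNA-miR27 and LNA-NC, with 1 ng/ml TGF-β2 or none over 72 hours. The groups were therefore the miR-31 inhibitor with TGF-β2 and with none, the miR-27 inhibitor with TGF-β2 and with none, and LNA-NC with TGF-β2 and with none, each held by 1 library, so that no group had a replicate.

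Most synthetases recognise 1 amino acid and the tRNAs that carry it, whereas Eprs serves both glutamate and proline. The amino acid is joined to its tRNA at the cost of ATP, which sets the accuracy of the genetic code. Cytosolic and mitochondrial ribosomes mostly draw on separate synthetases, although both sets are encoded in the nucleus, and Gars and Kars each give rise to both forms. In mammalian cells many cytosolic synthetase genes are known targets of ATF4, a transcription factor made when eIF2α is phosphorylated under amino acid shortage or endoplasmic reticulum stress. TGF-β2 is known to drive endothelial cells towards a mesenchymal state.

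ATF4 binds with C/EBP partners to sites of the form TGATGNAA, which were searched for on both strands in RefSeq promoter windows (build GRCm38.p6) from 250 bases before to 50 bases after the start. Windows were at hand for 14 of the 21 cytosolic and 14 of the 17 mitochondrial genes. The motif was present in 5 of these 14 cytosolic genes and in 0 of the 14 mitochondrial genes, against 4.51% of all 27025 genes in the table of windows. The stricter form TGATGCAA, whose matches are all among those of the first, was found in 4 of the 14 cytosolic genes (28.6%) and in 1.03% of all genes. A match is a string of letters and not evidence of binding. For each of the 5 genes the match nearest the start is printed as 30 bases read along the gene, with the motif in capitals, because these genes recur in the comparison of the miR-31 inhibitor, and every printed match but that of Yars is the reverse complement of the searched letters:
Aars: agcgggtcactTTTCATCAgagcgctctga
Gars: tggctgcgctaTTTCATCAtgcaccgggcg
Iars: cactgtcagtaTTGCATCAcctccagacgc
Tars: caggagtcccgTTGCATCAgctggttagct
Yars: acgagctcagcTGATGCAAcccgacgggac
The Aars match began at base 10 of the transcript (chr8:111033840-111033869, plus strand). Gars carried its match from 30 bases before the start (chr6:55037960-55037989, plus strand). In Iars it began at base 8 of the transcript (chr13:49682126-49682155, plus strand), and in Yars at base 4 (chr4:129189895-129189924, plus strand). The Tars match began 15 bases before the start (chr15:11399655-11399684, minus strand).

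The libraries were alike in breadth, with 11680 to 11791 gene names at 1 FPKM or more. Depth relative to the LNA-NC library without TGF-β2, estimated from the smallest values, was 81.7% to 90.3% in the other libraries. All 10 endothelial markers were expressed, at 19.9 to 647 FPKM, and 3 of them rose and 3 fell with TGF-β2. Leukocyte markers reached at most 0.342 FPKM, epithelial markers 1.37 FPKM and pancreatic markers 0.0461 FPKM, and Epcam, Krt5 and Pdx1 were listed at 0 in all 6 libraries. Such a listed 0 is not a measured absence, as described below for Eef1a1. The 7 smooth muscle and fibroblast markers summed to 2.43 to 3.17 FPKM with TGF-β2 and 1.39 to 1.71 FPKM without it, and their part in the results was not tested. In these bulk samples, fewer cells of a type and less RNA per cell cannot be told apart. The TGF-β2 library of the miR-31 transfection stood apart in Ddit3, which encodes the ATF4 partner CHOP. Ddit3 had 298 FPKM there and 19.6 to 70.1 FPKM in the other 5 libraries. It is listed at the same place as Mars, and its miR-31 difference, tested below, did not pass. Whether the inhibitors lowered their miRNAs is not measured by these values.

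Most cytosolic and few mitochondrial synthetase genes passed the test as lower with TGF-β2. The estimated change was below 0 in all 21 cytosolic and in 12 of the 17 mitochondrial genes, beside 6311 of the 11816 gene names tested. Of the 21 cytosolic genes 18 fell, 0 rose and 3 did not pass the test, whereas of the 17 mitochondrial genes 4 fell, 1 rose and 12 did not pass. The median change over the 3 transfections was -0.28 on the log2(FPKM + 1) scale for the cytosolic genes and -0.07 for the mitochondrial genes, beside -0.02 for all genes tested. The test was limma's moderated test in an additive fit of inhibitor and TGF-β2 over the 6 libraries, with Benjamini-Hochberg adjustment over all genes tested and a threshold of 0.05. Under that rule 27.5% of all genes tested fell and 22.7% rose, so that the cytosolic share of 85.7% stood above the background and the mitochondrial share of 23.5% was near it. An unadjusted p below 0.05 was reached by 19 cytosolic genes, none of them higher, and by 57.8% of all genes tested in either direction. With 1 library per group, the spread in this fit is how far the TGF-β2 response differs between the 3 transfections. It holds any effect of an inhibitor on that response, and the rest of it may be technical. Since nothing in the labels says that the libraries came from separate cultures, the p-values may not cover variation between cultures. Without either library of LNA-NC the count of cytosolic genes that fell was 9, beside 16.3% of all genes tested, and without either library of the miR-27 inhibitor it was 8, beside 17.7%. Without either library of the miR-31 inhibitor it was 19, beside 27.7%.

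**Figure D1:**
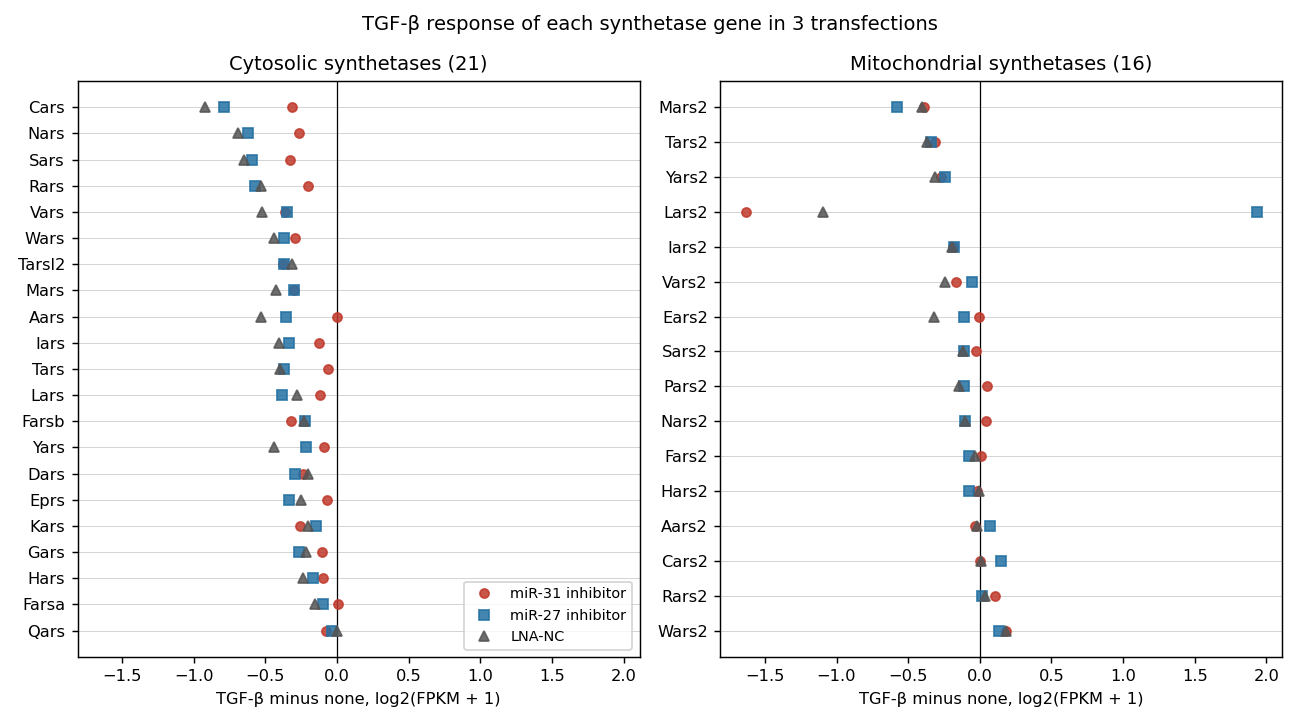
TGF-β2 minus none on the log2(FPKM + 1) scale (horizontal axis) for each of the 21 cytosolic and 16 of the 17 mitochondrial synthetase genes, 1 point for each transfection (red circles miR-31 inhibitor, blue squares miR-27 inhibitor, grey triangles LNA-NC), ordered by the mean of the 3. Most cytosolic points lie left of 0, with the miR-31 points nearest to 0 for many genes, while most mitochondrial points lie near 0, with those of Mars2, Tars2 and Yars2 to the left and those of Lars2 far to either side.

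Cars, the cysteine enzyme (chr7:150743610-150785947, build mm9), changed most among the cytosolic genes. It had 64.7 FPKM with TGF-β2 against 80.6 FPKM without it under the miR-31 inhibitor, 44.4 against 77.2 FPKM under the miR-27 inhibitor and 36.1 against 69.3 FPKM under LNA-NC. All 3 libraries with TGF-β2 were below all 3 without, and the change was -0.67 ± 0.12 (SE, limma adjusted p = 0.0104). Nars, the asparagine enzyme, had 101 against 121 FPKM with the miR-31 inhibitor, 77.8 against 120 FPKM with the miR-27 inhibitor and 64.9 against 105 FPKM with LNA-NC, TGF-β2 first in each pair, and fell by 0.52 ± 0.09 (adjusted p = 0.00927). Sars, the serine enzyme (chr3:108229530-108248087, mm9), had 196 against 246 FPKM, 165 against 250 FPKM and 133 against 209 FPKM in the same order of transfections, and fell by 0.52 ± 0.07 (adjusted p = 0.00476). In Nars and Sars too, no library with TGF-β2 reached any library without it.

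Rars, the arginine enzyme, was the most abundant synthetase transcript of the set, with a mean of 220 FPKM over the 6 libraries. Its levels were 225 against 260 FPKM under the miR-31 inhibitor, 178 against 265 FPKM under the miR-27 inhibitor and 160 against 231 FPKM under LNA-NC, with TGF-β2 and with none, a fall of 0.44 ± 0.08 (adjusted p = 0.0118). Vars, the valine enzyme, had 49.8 against 64.2 FPKM, 49.3 against 63.1 FPKM and 45.6 against 66.1 FPKM, and fell by 0.41 ± 0.05 (adjusted p = 0.00339). The smallest transcript level among the cytosolic forms was that of Tarsl2, a second threonyl-tRNA synthetase, at a mean of 10.1 FPKM. Tarsl2 had 8.87 against 11.8 FPKM, 8.96 against 11.9 FPKM and 8.42 against 10.7 FPKM, and fell by 0.35 ± 0.04 (adjusted p = 0.00242). Wars, the tryptophan enzyme, fell by a similar 0.37 ± 0.05 (adjusted p = 0.0033), with 33.4 to 35.8 FPKM in the libraries with TGF-β2 and 44.1 to 45.8 FPKM in those without. For these 4 genes the groups did not overlap.

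In all, 12 cytosolic genes were lower in every TGF-β2 library than in every other library and 0 were higher. Over all genes tested, 31.6% were lower and 26.8% higher in that sense. Besides the 7 genes above, the 12 were Mars (methionine), Dars (aspartate), Farsb (a phenylalanine subunit), Hars (histidine) and Kars (lysine). Dars had 117 to 123 FPKM with TGF-β2 and 135 to 145 FPKM without it, a fall of 0.24 ± 0.04 (adjusted p = 0.00837). Gars, the glycine enzyme, also fell, by 0.20 ± 0.05 (adjusted p = 0.0269). Its levels were 134 to 168 FPKM with TGF-β2 and 156 to 181 FPKM without, so that its groups overlapped. The other genes that fell with overlapping groups were Eprs (glutamate and proline), Iars (isoleucine), Lars (leucine), Tars (threonine) and Yars (tyrosine), with changes of -0.29 for Iars to -0.22 for Eprs. The 3 that did not pass the test were Aars (alanine), Farsa (the other phenylalanine subunit) and Qars (glutamine). Aars changed by -0.29 ± 0.11 (adjusted p = 0.0741). Without either library of the miR-31 inhibitor its change was -0.44 ± 0.06 and passed (adjusted p = 0.00417), and without either of LNA-NC it was -0.18. Farsa changed by -0.08 ± 0.05 (adjusted p = 0.231) while its partner subunit Farsb changed by -0.26 ± 0.04 (adjusted p = 0.00792). Qars had 36.2 to 38.9 FPKM with TGF-β2 and 36.2 to 39.8 FPKM without it, and changed by -0.04 ± 0.04 (adjusted p = 0.491).

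**Figure D2:**
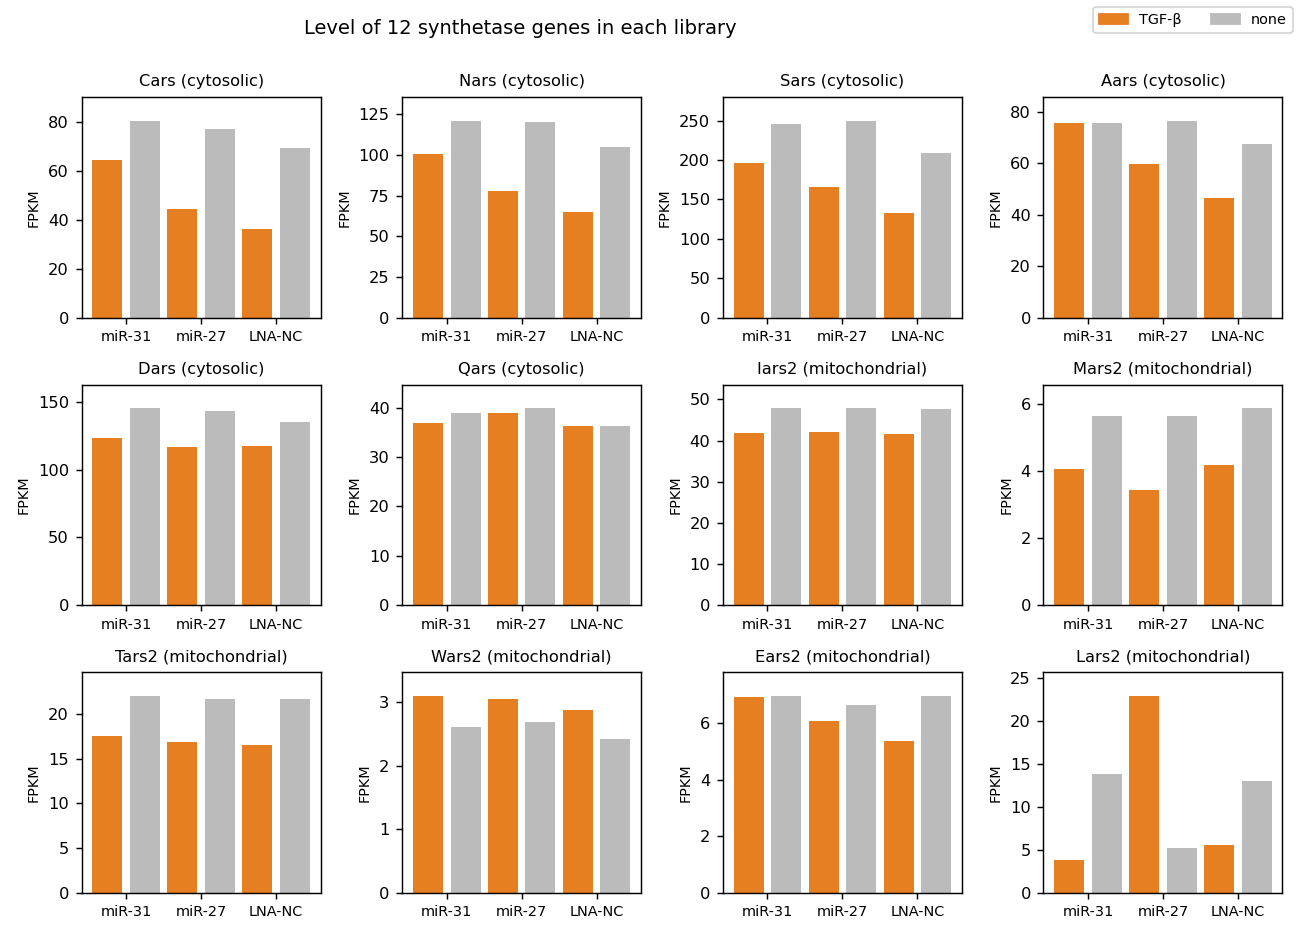
Level in FPKM (vertical axes, each from 0) of 12 synthetase genes in each of the 6 libraries, grouped by transfection, with orange bars for TGF-β2 and grey bars for none, 1 library per bar and no error bar. Cars, Nars and Sars are lower with TGF-β2 in each transfection, Aars stands at 75.5 FPKM in both miR-31 libraries, and Lars2 reaches 23.0 FPKM with TGF-β2 under the miR-27 inhibitor.

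In the multisynthetase complex, 8 cytosolic synthetases are held together by the scaffold proteins encoded by Aimp1, Aimp2 and Eef1e1. Of these 8 synthetase genes, all among the 21 cytosolic genes counted above, 7 fell and Qars did not, and their median change was -0.25. Over all genes tested 27.5% fell, and of the 21 cytosolic genes 85.7% did. Of the 3 scaffold genes 2 fell, Aimp2 by 0.28 ± 0.04 (limma adjusted p = 0.00572) and Aimp1 by 0.18 ± 0.04 (adjusted p = 0.0159). Eef1e1 changed by -0.13 ± 0.04 (adjusted p = 0.0593).

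Among mitochondrial forms, 4 genes fell. Mars2, which makes the methionyl-tRNA used for mitochondrial initiation and elongation, had 4.08 against 5.65 FPKM under the miR-31 inhibitor, 3.45 against 5.63 FPKM under the miR-27 inhibitor and 4.20 against 5.87 FPKM under LNA-NC, with TGF-β2 and with none. It changed by -0.46 ± 0.05 (adjusted p = 0.00268). Tars2, the threonine enzyme, had 16.5 to 17.5 FPKM with TGF-β2 and 21.6 to 22.0 FPKM without it, a fall of 0.34 ± 0.04 (adjusted p = 0.00251). Yars2, the tyrosine enzyme, fell by 0.28 ± 0.04 (adjusted p = 0.00509), and Iars2, the isoleucine enzyme and the most abundant mitochondrial form, by 0.19 ± 0.04 (adjusted p = 0.0142). Iars2 had 41.7 to 42.1 FPKM with TGF-β2 and 47.7 to 47.8 FPKM without it. In each of these 4 genes the groups did not overlap. Of the 17 mitochondrial genes, 5 were lower and 2 higher without overlap, where 31.6% and 26.8% of all genes tested were.

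Wars2, the tryptophan enzyme (chr3:98945013-99024126, mm9) and the least abundant member at a mean of 2.79 FPKM, was the 1 synthetase gene that rose. Its levels were 3.09 against 2.61 FPKM with the miR-31 inhibitor, 3.05 against 2.68 FPKM with the miR-27 inhibitor and 2.88 against 2.42 FPKM with LNA-NC, with TGF-β2 and with none. The change was 0.17 ± 0.04 (adjusted p = 0.0219), while that of its cytosolic counterpart Wars was -0.37. Vars2, for valine, was lower in all 3 libraries with TGF-β2, at 7.49 to 8.69 FPKM against 9.05 to 9.50 FPKM without it, and did not pass the test (adjusted p = 0.0606). Mitochondrial genes at low levels are compressed by the added 1 FPKM: as a share of the level without TGF-β2, Mars2 stood at 72.2%, 61.3% and 71.5% in the miR-31, miR-27 and LNA-NC transfections.

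Lars2, the mitochondrial leucine enzyme (chr9:123276058-123371782, mm9), was the most variable member. It had 3.81 FPKM with TGF-β2 against 13.9 FPKM without it under the miR-31 inhibitor, 23.0 against 5.27 FPKM under the miR-27 inhibitor and 5.56 against 13.0 FPKM under LNA-NC. The level was thus lower with TGF-β2 in 2 transfections and higher in the other one, and the additive change was -0.26 ± 0.71 (adjusted p = 0.78). Without either library of the miR-27 inhibitor it was -1.36 ± 0.14 (adjusted p = 0.00491), without either of the miR-31 inhibitor 0.42, and without either of LNA-NC 0.15, so that its direction turned with the libraries used. Set against the other 2 transfections pooled, its response with the miR-27 inhibitor was higher by 3.30 ± 0.28 (SE), with an unadjusted p of 9.3e-05 and an adjusted p of 0.182 in limma. The table lists a second name at the same place, Kiaa0028, at 0.356 to 0.445 FPKM in the 6 libraries. Of the other mitochondrial genes, Aars2, Cars2, Ears2, Fars2, Hars2, Nars2, Pars2, Rars2 and Sars2 changed by -0.15 (Ears2) to 0.05 (Rars2) and did not pass the test. Glutaminyl-tRNA in mitochondria is made by an amidotransferase in place of a synthetase: of its subunit genes Pet112l fell by 0.18 ± 0.04 (adjusted p = 0.0223), whereas Qrsl1 (-0.09) and Gatc (-0.17) did not pass, nor did the formyltransferase gene Mtfmt (-0.10).

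The cytosolic genes were expressed above the mitochondrial ones for most amino acids. Mean levels ran from 10.1 to 220 FPKM with a median of 56.3 FPKM among cytosolic genes, and from 2.79 to 44.8 FPKM with a median of 6.50 FPKM among mitochondrial genes. For 16 amino acids with a gene for each form, the cytosolic level was higher in 15, and the ratio of mean levels had a median of 10.7 and reached 57.1 for serine. Isoleucine was the exception, with a ratio of 0.735 of Iars to Iars2. The cytosolic response to TGF-β2 was below that of the paired mitochondrial gene for 10 amino acids under the miR-31 inhibitor, 14 under the miR-27 inhibitor and 14 under LNA-NC. Eprs, which serves glutamate and proline, counts in 2 of these pairs.

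**Figure D3:**
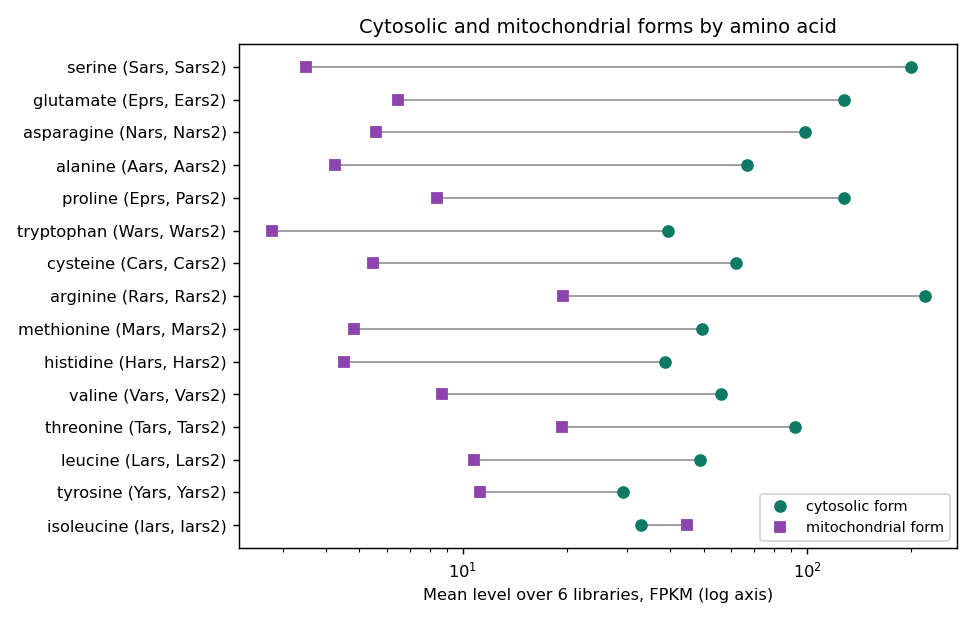
Mean level over the 6 libraries in FPKM (horizontal log axis) of the cytosolic (green circles) and mitochondrial (purple squares) gene for each of 15 of the 16 amino acids, ordered by their ratio. The cytosolic gene is the higher in 14 of the 15 pairs, and isoleucine at the bottom, with Iars at 32.9 FPKM and Iars2 at 44.8 FPKM, runs the other way.

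Seen by transfection, the cytosolic genes responded least to TGF-β2 under the miR-31 inhibitor. Their median was -0.20 with the miR-31 inhibitor, -0.34 with the miR-27 inhibitor and -0.39 with LNA-NC, beside -0.03, -0.02 and -0.02 for all genes tested. A response of -0.5 or lower was seen in 0, 4 and 6 of the 21 cytosolic genes in those transfections, against 8.29%, 7.19% and 7.37% of all genes tested. As a sum, the 21 genes came to 1667 FPKM with TGF-β2 and 1910 FPKM without it under the miR-31 inhibitor (87.3%), 1458 and 1921 FPKM under the miR-27 inhibitor (75.9%), and 1312 and 1741 FPKM under LNA-NC (75.4%). Mitochondrial medians were closer together, at -0.02, -0.08 and -0.11, and without Lars2 the summed mitochondrial level with TGF-β2 was 93.6%, 91.1% and 90.7% of that without. The mitochondrial median under the miR-31 inhibitor changed sign under both rescalings of the libraries.

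Aars (chr8:113557867-113581499, mm9) was level under the miR-31 inhibitor only. It had 75.5 FPKM with TGF-β2 and 75.5 FPKM without it under the miR-31 inhibitor, 59.6 against 76.5 FPKM under the miR-27 inhibitor and 46.6 against 67.6 FPKM under LNA-NC. Tars had 99.8 against 104 FPKM, 79.8 against 103 FPKM and 71.6 against 94.4 FPKM in the same order, and Iars 34.5 against 37.7 FPKM, 29.4 against 37.5 FPKM and 25.0 against 33.5 FPKM. Tars and Iars were lower with TGF-β2 in all 3 transfections, by the smallest amount under the miR-31 inhibitor. By contrast Kars had 100.3 against 120 FPKM under the miR-31 inhibitor, 109 against 121 FPKM under the miR-27 inhibitor and 107 against 123 FPKM under LNA-NC.

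The miR-31 response minus that of the other transfections was tested in a fit that pooled the miR-27 and LNA-NC transfections as replicates, with the libraries of the miR-31 inhibitor assumed to vary like them. No synthetase gene passed: limma called 0 of the 38 members, beside 15 of all genes tested (0.127%), and 1 member, Cars, had an unadjusted p below 0.05, as did 6.75% of all genes tested. The difference for Cars was 0.54 ± 0.20 (unadjusted p = 0.0405, adjusted p = 0.717). It was 0.44 ± 0.23 for Aars (adjusted p = 0.789), 0.39 ± 0.20 for Nars (adjusted p = 0.788), 0.35 ± 0.16 for Rars (adjusted p = 0.778) and 0.32 ± 0.14 for Tars (adjusted p = 0.768). The counterpart fit for the miR-27 inhibitor called 4 of all genes tested (0.0339%) and that for LNA-NC 9 (0.0762%), with 0 members in either. Among the members, Lars2 alone had an unadjusted p below 0.05 in the first of these and none did in the second, beside 0.745% and 2.39% of all genes tested.

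In a list of 13 cytosolic genes that have been reported as ATF4 or CHOP targets, the response under the miR-31 inhibitor mostly lay above both others. The list holds Aars, Cars, Eprs, Gars, Iars, Lars, Mars, Nars, Sars, Tars, Vars, Wars and Yars. Of them 12 fell with TGF-β2 and Aars did not pass, where 85.7% of the 21 cytosolic genes and 27.5% of all genes tested fell. The medians by transfection were -0.13 with the miR-31 inhibitor, -0.35 with the miR-27 inhibitor and -0.44 with LNA-NC. The miR-31 response was the highest of the 3 in 12 of the 13 (92.3%), against 33.6% of all genes tested. Of the other 8 cytosolic genes 6 fell, the medians were -0.22, -0.19 and -0.22, and the miR-31 response was the highest in 3 (37.5%). Among mitochondrial genes it was the highest in 8 of 17 (47.1%). These counts rest on 1 library per group, so the genes are not replicates of a condition. The list was chosen with earlier results of these data known, and none of its genes passed the test of the miR-31 difference. The 5 genes with a TGATGNAA match, printed above, are all on the list of 13. Of the rest of the list, Eprs, Mars and Sars had a window and no match, and Cars, Lars, Nars, Vars and Wars had no window. In each of the 5 genes the levels with and without TGF-β2 overlapped between libraries. The same held for Eprs and Lars, but not for Cars, Mars, Nars, Sars, Vars and Wars. Of the cytosolic genes, 12 were lower and 0 higher with TGF-β2 without overlap. Of all genes tested, 31.6% were lower and 26.8% higher in that sense. Whether the motif goes with the response was not tested.

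**Figure D4:**
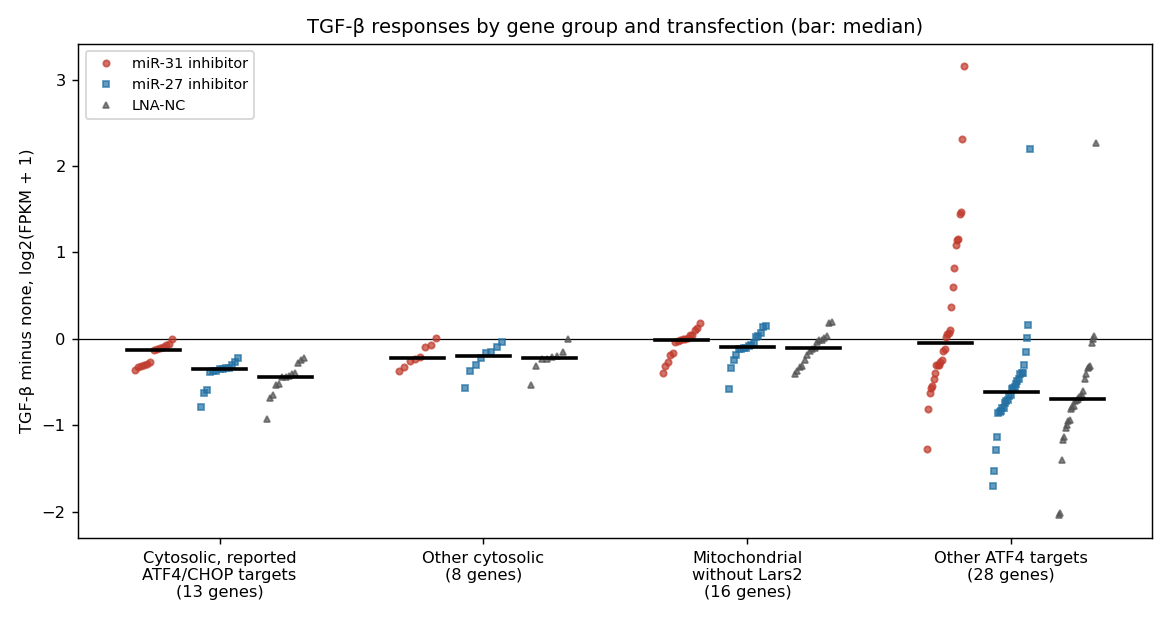
TGF-β2 minus none on the log2(FPKM + 1) scale (vertical axis) for each gene of 4 groups, by transfection (red circles miR-31 inhibitor, blue squares miR-27 inhibitor, grey triangles LNA-NC), with black bars at the medians and genes sorted by value within each column. The medians of the 13 reported ATF4 or CHOP targets are -0.13, -0.35 and -0.44, and those of 28 other ATF4 targets are -0.05, -0.61 and -0.70.

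ATF4 targets outside the synthetases ranged more widely. Of 32 such genes 28 were tested, and 14 fell and 1 rose, where 27.5% of all genes tested fell and 22.7% rose. The medians were -0.05 with the miR-31 inhibitor, -0.61 with the miR-27 inhibitor and -0.70 with LNA-NC. Those of all genes tested were -0.03, -0.02 and -0.02. Asns, which makes asparagine, had 78.1 against 137 FPKM, 55.0 against 135 FPKM and 39.0 against 105 FPKM in that order, with TGF-β2 and with none. It fell by 1.16 ± 0.12 (limma adjusted p = 0.00184), beside 0.52 for Nars, which loads that amino acid. Slc1a5, a glutamine transporter, fell by 1.19 ± 0.05 (adjusted p = 0.000105). Some genes of this list were higher with TGF-β2 under the miR-31 inhibitor and lower in the other transfections. Chac1, which degrades glutathione, had 109 FPKM with TGF-β2 against 48.4 FPKM without it there, 16.4 against 49.3 FPKM under the miR-27 inhibitor and 7.06 against 32.2 FPKM under LNA-NC. Trib3, a pseudokinase, had 95.3 against 73.7 FPKM, 21.7 against 72.7 FPKM and 11.1 against 47.7 FPKM. The gene that rose was Ddit4, an inhibitor of mTORC1 signalling, with 27.3 against 2.18 FPKM, 14.3 against 2.32 FPKM and 11.5 against 1.58 FPKM (2.54 ± 0.20, adjusted p = 0.000758). Of this list Atf3, a transcription factor gene, passed the test of the miR-31 difference (1.86 ± 0.14, adjusted p = 0.0242).

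Atf4 itself had 343 against 287 FPKM under the miR-31 inhibitor, 189 against 289 FPKM under the miR-27 inhibitor and 126 against 221 FPKM under LNA-NC. Its additive change was -0.39 ± 0.21 (adjusted p = 0.188) and its miR-31 difference 0.97 ± 0.39 (unadjusted p = 0.0521, adjusted p = 0.74), neither of which passed. Ddit3, which shares its place in the table with Mars, had a miR-31 difference of 3.23 ± 0.68 (unadjusted p = 0.0045, adjusted p = 0.433). Mars had 46.1 against 56.9 FPKM, 45.3 against 56.0 FPKM and 39.1 against 52.8 FPKM in the same order, so it did not follow the 298 FPKM of Ddit3. Ppp1r15a, which directs a phosphatase to eIF2α, had a miR-31 difference of 1.04 ± 0.35 that did not pass either (adjusted p = 0.668). In a list of 9 genes, with the eIF2α kinases and Atf4 among them, 3 fell and 1 rose, where 27.5% and 22.7% of all genes tested did. Of the eIF2α kinase genes, Eif2ak3, which senses stress in the endoplasmic reticulum, rose by 0.39 ± 0.04 (adjusted p = 0.00145), and Eif2ak4, which senses uncharged tRNA, fell by 0.20 ± 0.04 (adjusted p = 0.0143).

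Averaged over the TGF-β2 states, no synthetase gene passed the test of an inhibitor. For the miR-31 inhibitor against LNA-NC limma called 0 of the 38 members and 4 of all genes tested (0.0339%), while 12 cytosolic and 2 mitochondrial genes had an unadjusted p below 0.05, as did 18.1% of all genes tested. For the miR-27 inhibitor against LNA-NC it called 0 members and 1 of all genes tested (0.00846%), with 3 cytosolic genes and 1 mitochondrial gene below an unadjusted 0.05, as were 12.4% of all genes tested. With TGF-β2, the median cytosolic difference from LNA-NC was 0.30 for the miR-31 inhibitor and 0.14 for the miR-27 inhibitor, with 18 and 17 of the 21 genes higher, against 49% and 51.2% of all genes tested. Without it, the medians were 0.13 and 0.13, with 15 and 15 genes higher, against 55.2% and 52%. The comparisons share the LNA-NC libraries. Under the miR-31 inhibitor Cars stood highest with TGF-β2, at 0.82 above LNA-NC. Without TGF-β2 Cars was 0.21 above LNA-NC, and Sars stood highest there at 0.23. When the library of the miR-31 inhibitor without TGF-β2 was left out, 10 members were called higher with that inhibitor, among them Cars (0.79, adjusted p = 0.0152) and Aars (0.64, adjusted p = 0.0241), beside 5.94% of all genes tested. On the side of the miR-31 inhibitor those 10 values rest on its TGF-β2 library alone.

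Other parts of the translation machinery held genes that fell and genes that did not pass, and how these lists differ from the synthetases was not tested. The counts stand beside the 27.5% of all genes tested that fell and the 22.7% that rose. Of 28 initiation factor genes 12 fell and 0 rose, with a median change of -0.14, and the largest falls were those of Eif6, which keeps ribosomal subunits apart (-0.55 ± 0.05, adjusted p = 0.000957), and Eif3c, an initiation complex subunit (-0.41 ± 0.04, adjusted p = 0.00134). Of 5 elongation factor genes tested 3 fell, Eif5a by 0.35, Eef2 by 0.21 and Eef1d by 0.17. Eef1a1, whose product brings charged tRNAs to the ribosome, was listed at 0 in all 6 libraries, so a listed 0 is not a measured absence in this table. Of 9 mitochondrial translation factor genes 4 fell, among them Tsfm (-0.35 ± 0.05, adjusted p = 0.0047), and Mtrf1 rose by 0.21 ± 0.05 (adjusted p = 0.0233).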

How the data were processed

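RNA-seq libraries of MS-1 cells, 1 per group, were analysed from the gene table that the authors deposited, whose values are FPKM per the name the authors gave it. Reads were processed with TopHat2 2.0.9 and Cufflinks 2.1.1 and the build mm9, per the submitters' processing notes. The gene annotation and the strand setting of the counting are not given in the sources used here, so genes that share a place, such as Mars and Ddit3, Lars2 and Kiaa0028, Vars and D17H6S56E-5 or Yars and C77080, are uncertain. FPKM carry no read totals, so the depth behind a value is unknown and no counting interval is given. Relative depth was taken from the commonest ratio between libraries of values under 0.05 FPKM.

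Values were taken as log2(FPKM + 1), which understates changes of low genes, and names with a mean of at least 1 FPKM were tested in limma 3.58.1 under R 4.3.3. The additive fit left 2 residual degrees of freedom, moderated by a prior of 2.87. The fits were also run on simulated data with independent noise, a simpler setting than these libraries, so that run does not bear on the calls made here. Members with full values are the called genes with the largest changes and the highest and lowest by mean level. Of the other lists, up to 4 genes with the largest changes are named, and Asns, Slc1a5, Atf3 and Eif2ak4 were added after their values were seen. The members and lists were chosen with earlier results of these data known. RefSeq windows for Cars, Hars, Lars, Nars, Rars, Vars, Wars, Hars2 and Pars2 were not used here. Counts cover all members, but some items are not reported here. Alternatives changed the added value, the filter, the scaling, the moderation, the inhibitor term and the libraries.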

Additional observations from a re-analysis of the deposited data

Results flagged for a closer look

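The response of Atf3 to TGF-β2 differed between transfections in the test of the difference itself. It was 1.862 higher on the log2(FPKM + 1) scale with the miR-31 inhibitor than with the others (limma adjusted p = 0.02416), with 88.8 FPKM with TGF-β2 against 32.0 FPKM without it under the miR-31 inhibitor, 22.0 against 31.8 FPKM under the miR-27 inhibitor and 25.1 against 31.6 FPKM under LNA-NC. No synthetase gene met that threshold.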

How the results depend on the processing

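With 1 library per group the tests rest on the additive fit and on few residual degrees of freedom. The count of cytosolic genes that fell was 18 as reported, 8 without the filter on low values (the cause was not tested) and 12 to 18 under the other settings with all libraries, and it ran from 8 to 19 with a library left out. The mitochondrial gene that rose, Wars2, was below the filter at a mean of at least 5 FPKM, which gave 0, while upper quartile scaling gave 2, and 0 to 1 rose with a library left out. For the miR-31 inhibitor 0 to 10 members were called with a library left out. Leaving out either library of a transfection gave the same TGF-β2 fit, so the 6 left-out libraries stand for 3 distinct fits. Of the 23 called members 11 passed without each library in turn, 8 of them cytosolic (Cars, Farsb, Mars, Nars, Sars, Tarsl2, Vars and Wars) and 3 mitochondrial (Mars2, Tars2 and Yars2), and all 23 kept their sign. The 489 recomputed values of single members count each of those fits for both of its libraries. Among them 72 were no longer past the threshold, 7 newly passed and 9 changed sign, all of genes that had not passed. With upper quartile scaling these were Qars (0.0059), Fars2 (0.0025) and Hars2 (0.0025). With a library left out they were Lars2, which ran from -1.36 to 0.42, and Aars2, which ran from -0.027 to 0.028. The median TGF-β2 change of all genes was -0.02 as deposited, -0.001 after median scaling and 0.02 after upper quartile scaling. The inhibitor term pairs the TGF-β2 and untreated library of each transfection, and without it 12 cytosolic genes fell; the labels give no replicate numbers beyond that pairing.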
